A study of Bos taurus with 15 samples.

Results

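Iron-recycling macrophages break down red blood cells and return their iron to the blood. The genes HMOX1, BLVRB, CD163, SLC40A1, FTL, FTH1, SPIC and NR1H3, 8 of the 11754 genes with a symbol that were measured, were described here in bovine thymus. Each was read from the 1 array probe whose gene name or bracketed description gave its symbol, 8 probes in all. The genes were chosen from values of the same animals, namely the difference between prednisolone-treated and control cows and the relation to haemoglobin signal, so both are given below as descriptions.

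Red blood cells end their life inside macrophages of the spleen, liver and bone marrow, where haem oxygenase opens the haem ring, biliverdin reductases turn its green product into bilirubin, and the freed iron is either stored in ferritin or exported through ferroportin. In mice the transcription factor SPIC is needed for the red pulp macrophages of the spleen that do this work. The thymus is mainly a tissue of developing T cells, and its macrophages are best known for clearing the many thymocytes that die there.

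Thymus was taken at the slaughterhouse from 15 Holstein cows, 8 of which had received the synthetic glucocorticoid prednisolone orally for 35 days, at 30 mg a head each day, and 7 of which were untreated controls. The labels give no age, and their protocol field names prednisolone for every sample, so the groups follow the treatment entry of each animal. Each animal's RNA, marked with a single dye, was run on an array of its own. Values are log2 of the background-subtracted signal relative to the 75th percentile of the same array, so that 0 is the 75th percentile, and a level can be compared between animals for 1 probe but not between probes.

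The arrays lay on 4 slides, which were the batches available. Slide 1 held prednisolone animal 6 and controls 1, 2 and 5. Slide 2 held prednisolone animals 3, 5 and 8 and control 3. Slide 3 held prednisolone animal 1 and controls 4, 6 and 7. Slide 4 held prednisolone animals 2, 4 and 7 and no control, so for these 3 animals slide and treatment cannot be told apart. Between 67.1% and 77.7% of bovine spots were well above background on an array. The mean of 8 thymocyte markers lay at 2.94 to 3.25 in prednisolone animals and 2.89 to 3.18 in controls.

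Some arrays also carried transcripts that serve as markers of other organs, by lists chosen after the data were seen. Whether they came from the thymus itself or from elsewhere was not tested, so liver and testis transcripts below name the markers only. The mean of 9 hepatocyte markers was -1.04 in prednisolone animal 3 and 0.41 in prednisolone animal 4, against -3.56 to -2.81 in the other 13 animals. The mean of 6 testis markers was -2.16 to 0.39 in prednisolone animal 8 and controls 1, 4 and 6, against -4.54 to -3.06 in the others. Group differences and relations are given with and without the arrays with liver transcripts, whereas the test over all slides and the comparison of control slides were made with all their arrays. Prednisolone animal 4 was also the lowest of all 15 animals for HMOX1, CD163, SLC40A1, SPIC and NR1H3. Whether those low values are linked to the liver transcripts was not tested.

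All 8 probes were well above background on all 8 prednisolone and all 7 control arrays, and no spot of them was saturated. All 8 genes were lower on average in prednisolone animals, with a median difference of -0.17 on the log2 scale, against -0.00044 over all 16069 kept probes, of which 50.1% were lower. With normexp background correction, which moved the median of all probes to -0.21, 7 of the 8 were lower and 3 lay below that median. In the limma fit over all probes 0% of kept probes had an adjusted p under 0.05, and so none of the 8. At an unadjusted p under 0.05 the count over the 8 was 1, HMOX1, beside 7.08% of all kept probes in either direction and 3.1% in the lower direction. The members were chosen on this contrast, so nothing is read from those counts. The signal of each gene in each animal is plotted with the group means.

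**Figure D1:**
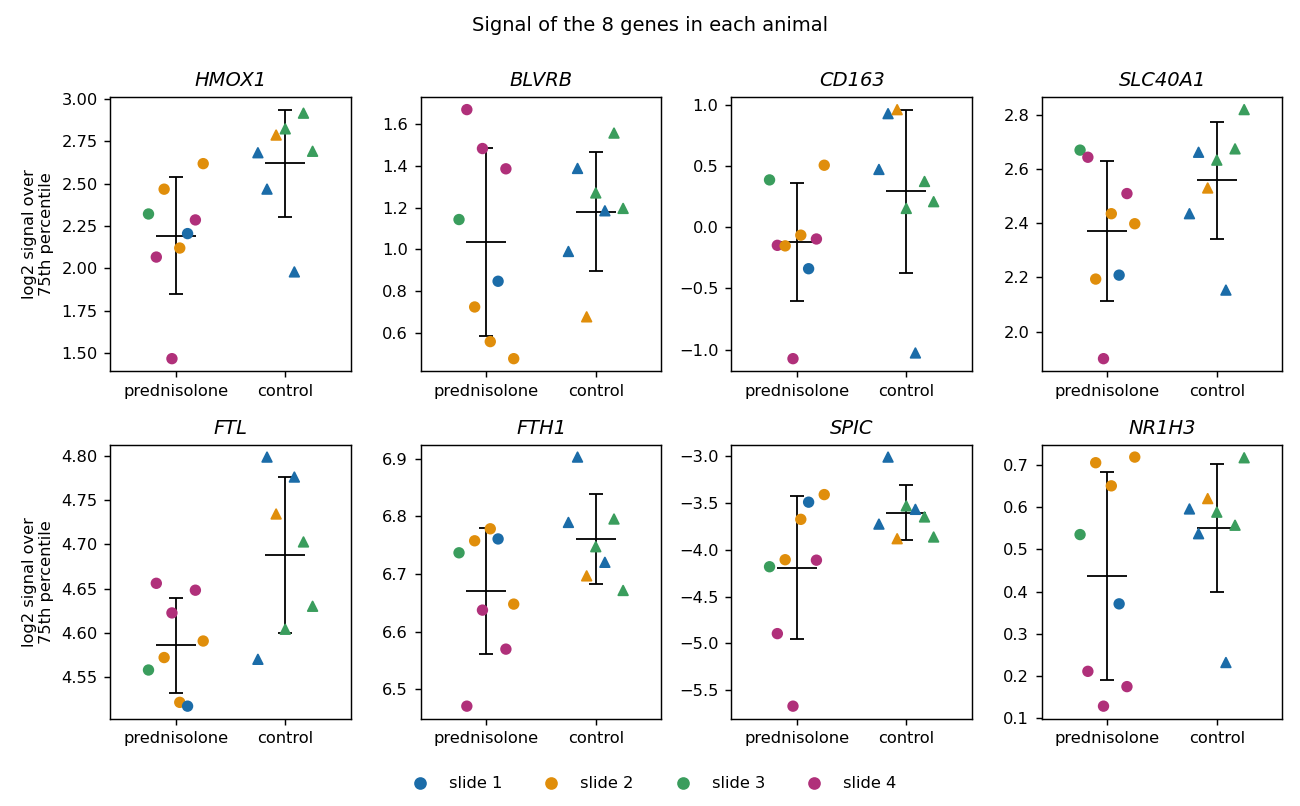
Signal of the 8 genes in each animal, in log2 over the 75th percentile of the array, with prednisolone animals as circles to the left of controls as triangles and a colour per slide. Bars are the mean and SD of the group (8 prednisolone, 7 control). The groups overlap for every gene, and the 3 animals of slide 4 are low for NR1H3 and SPIC and high for BLVRB.

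HMOX1 encodes haem oxygenase 1, the inducible enzyme that opens haem and frees its iron. Its signal was 1.47 at the lowest, 2.25 at the median and 2.62 at the highest in prednisolone animals, against 1.98, 2.69 and 2.91 in controls. Every one of the 8 prednisolone animals lay below the control median, yet only prednisolone animal 4 lay below the lowest control, which was control 5. The mean was 2.19 ± 0.34 in prednisolone animals (SD, n = 8) and 2.62 ± 0.32 in controls (SD, n = 7). The difference was -0.43 ± 0.16 (SE), a ratio of 0.744. It was -0.17, -0.38 and -0.49 within slides 1, 2 and 3, -0.35 ± 0.18 with slide as a block and -0.27 ± 0.15 once slide 4 was left out. Without the 2 arrays with liver transcripts it was -0.35 ± 0.15, and without the 6 arrays with liver or testis transcripts -0.28 ± 0.16.

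BLVRB encodes biliverdin reductase B, which acts on biliverdin and on flavins and is abundant in red cells. The lowest, median and highest signals were 0.48, 0.996 and 1.67 in prednisolone animals and 0.68, 1.20 and 1.55 in controls. Prednisolone animals lay at both ends of the range, with 2 below the lowest control and 1 above the highest. The 4 animals of slide 2 were the lowest, at 0.48 to 0.73, and those of slide 4 lay high, at 1.38 to 1.67, beside control 6 at 1.55. The difference between groups was -0.14 ± 0.19, a ratio of 0.905, and was -0.21 ± 0.11 with slide as a block and -0.43 ± 0.15 once slide 4 was left out. Without the 6 arrays with liver or testis transcripts it was 0.0093 ± 0.24. Leaving out 1 animal moved it to between -0.23, without prednisolone animal 2, and -0.064, without prednisolone animal 8.

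The 2 spots that carry the BLVRB probe on each array did not give the same picture. Spot 1 was 1.503 to 1.89 on slide 1, 1.43 to 1.69 on slide 2, 1.71 to 2.02 on slide 3 and 1.38 to 1.64 on slide 4. Spot 2 was 0.11 to 0.89 on slide 1, -0.56 to -0.23 on slide 2, 0.57 to 1.09 on slide 3 and 1.39 to 1.69 on slide 4. The gap between them, spot 1 minus spot 2, was 1.73 to 2.08 on slide 2 and -0.051 to 0.015 on slide 4. Its mean over arrays was 1.08, and 2.67% of 16060 kept probes had a gap at least as large, against a median of 0.076. With spot 1 alone the difference between groups was -0.19 ± 0.083, and with spot 2 alone -0.10 ± 0.35. The level of BLVRB on a slide therefore depended on which spot was read.

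**Figure D2:**
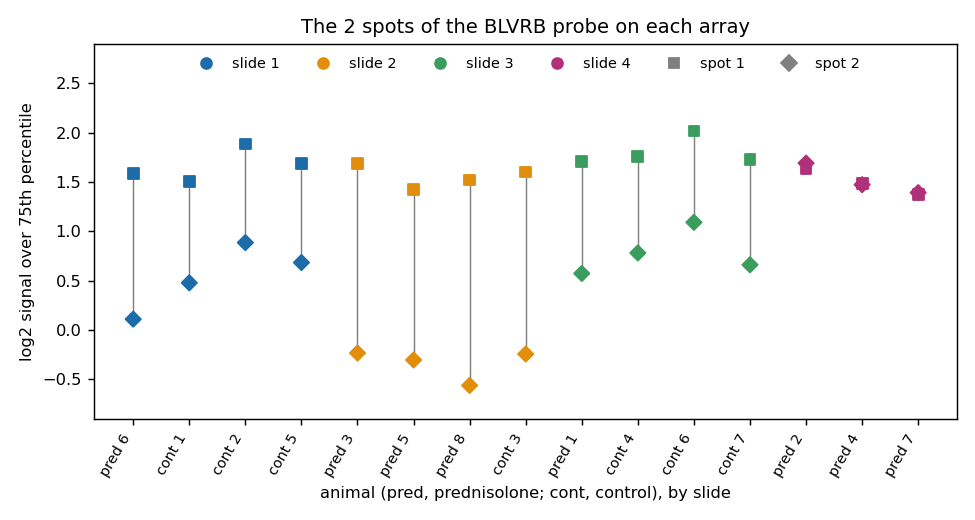
Signal of the 2 spots of the BLVRB probe on each of 15 arrays, in log2 over the 75th percentile, ordered by slide with prednisolone animals before controls, squares for spot 1 and diamonds for spot 2, joined by a line. The spots lie together on slide 4 only, and on slide 2 they are 1.73 to 2.08 apart.

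CD163 is the macrophage receptor that takes up haemoglobin bound to haptoglobin, and in human monocytes glucocorticoids are known to raise it. Its signal ran over -1.07, -0.12 and 0.51 (lowest, median, highest) in prednisolone animals and -1.03, 0.37 and 0.96 in controls. The groups overlapped, with prednisolone animal 4 and control 5 at the bottom together, and 6 of 8 prednisolone animals lay below the control median. The difference was -0.42 ± 0.28, a ratio of 0.748, with values of -0.46, -0.86 and 0.14 within slides 1, 2 and 3. Without control 5 alone it was -0.64. It was -0.40 ± 0.35 with slide as a block and -0.25 ± 0.28 without the arrays with liver transcripts. Between animals of 1 group CD163 varied more than most probes. Its residual SD was 0.57, at the 87.7th percentile of the kept probes, whose median was 0.26.

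SLC40A1 encodes ferroportin, the only known iron exporter of mammalian cells. The signals were 1.90, 2.42 and 2.67 in prednisolone animals, against 2.15, 2.63 and 2.82 in controls, given as lowest, median and highest. Prednisolone animal 4 was again the lowest and control 5 the lowest control, and the ranges of the other animals overlapped. The difference was -0.19 ± 0.12, a ratio of 0.877. It stayed negative within slides 1, 2 and 3, at -0.21, -0.19 and -0.039, and was -0.15 ± 0.14 with slide as a block. Without the arrays with liver transcripts it was -0.081 ± 0.11, and without prednisolone animal 4 alone -0.12.

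A second SLC40A1 probe, found through the gene number in the files, was well above background on all arrays. It read -4.00, -3.08 and -2.11 in prednisolone animals and -3.07, -2.34 and -1.86 in controls. The difference was -0.38 ± 0.28, and -0.12 ± 0.22 with slide as a block. Across the 15 arrays the 2 probes had a Pearson's r of 0.18, and 0.77 once each value was taken relative to the mean of its slide. The probes thus followed each other more closely within slides than across all arrays, although they did not put the animals of a slide in the same order.

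FTL and FTH1 encode the light and heavy chains of ferritin, the shell that stores iron, and were both among the 1607 brightest of the 16069 kept probes. FTL was 4.52, 4.58 and 4.66 in prednisolone animals and 4.57, 4.70 and 4.80 in controls. All 8 prednisolone animals were below the control median and 3 below the lowest control. The difference was small, -0.10 ± 0.055, a ratio of 0.932. It was -0.20, -0.17 and -0.088 within slides 1, 2 and 3, -0.15 ± 0.067 with slide as a block, -0.14 ± 0.062 without slide 4 and -0.11 ± 0.064 without the arrays with liver transcripts.

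FTH1 was 6.47, 6.69 and 6.78 in prednisolone animals and 6.67, 6.75 and 6.90 in controls. The 4 prednisolone animals below the lowest control included all 3 of slide 4, whose values were 6.47 to 6.64. The difference was -0.090 ± 0.063, a ratio of 0.939, and came to -0.0044 ± 0.069 with slide as a block and -0.024 ± 0.061 once slide 4 was left out. Without the arrays with liver transcripts it was -0.0996 ± 0.072. The residual SD of FTL, 0.072, was at the 0.40th percentile of all kept probes and the 1.31th percentile of those 1607, whose median was 0.16. That of FTH1, 0.096, was at the 2.47th and 8.84th percentiles. Ferritin light chain signal was therefore among the least variable between animals, also for a bright probe.

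SPIC, the transcription factor of red pulp macrophages in mice, lay well below the 75th percentile of every array. It was -5.67, -4.11 and -3.41 in prednisolone animals and -3.88, -3.65 and -3.01 in controls. Of the prednisolone animals 5 lay below the lowest control, and these were the 3 of slide 4 together with animals 1 and 3, while animals 5, 6 and 8 lay among the controls. The difference was the largest of the 8, at -0.59 ± 0.29, a ratio of 0.665. It was -0.057, 0.15 and -0.50 within slides 1, 2 and 3, -0.13 ± 0.27 with slide as a block, -0.17 ± 0.18 without slide 4 and -0.36 ± 0.23 without the arrays with liver transcripts. Without prednisolone animal 4 alone it was -0.38. The SPIC difference was thus smaller without the animals for which slide and treatment cannot be told apart.

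NR1H3 encodes LXR alpha, a nuclear receptor for oxysterols that raises cholesterol efflux genes and, in mice, is needed for some splenic macrophages. Its signal was 0.13, 0.45 and 0.72 in prednisolone animals and 0.23, 0.59 and 0.72 in controls. The 3 prednisolone animals below the lowest control were exactly those of slide 4, at 0.13 to 0.21, while the 4 animals of slide 2, 3 of them treated, lay at 0.62 to 0.72. The difference was -0.11 ± 0.11, a ratio of 0.925. It was -0.033 ± 0.082 with slide as a block and 0.046 ± 0.093 once slide 4 was left out. Without the arrays with liver transcripts it was -0.11 ± 0.11, and without prednisolone animal 4 alone -0.069.

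With slide as a block 8 of 8 genes were lower, at a median of -0.15, beside 8018 of all 16069 kept probes. Without slide 4 it was 7 of 8, at a median of -0.17, beside 7171 of all kept probes. Both fits repeat the contrast on which the genes were chosen, so nothing is read from these counts. HMOX1 and FTL were the genes in which all 8 prednisolone animals lay below the control median and the difference was negative within each of slides 1 to 3. SLC40A1 and BLVRB were negative within those 3 slides too. SPIC, CD163, FTH1 and NR1H3 had 1 slide each in which the sign was turned. In whole tissue, fewer cells of a type and less RNA per cell cannot be told apart.

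**Figure D3:**
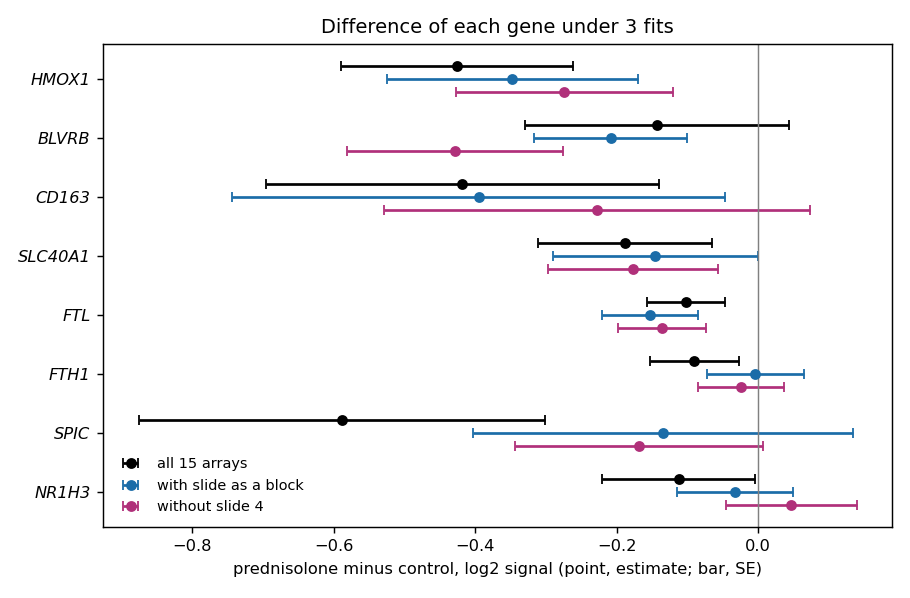
Prednisolone minus control for each gene, in log2 signal, with points for the estimate and bars for its SE, for all 15 arrays, for the fit blocked on slide and for the fit that leaves out slide 4. SPIC is at -0.59 over all arrays and at -0.13 with slide as a block, while HMOX1 is at -0.43 and -0.35.

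The slide effect itself was not used to choose the genes and was tested with limma in a fit that held treatment. Signal differed between slides for BLVRB (adjusted p = 0.000604), NR1H3 (adjusted p = 0.00782) and SPIC (adjusted p = 0.0452), 3 of 8 genes, where 30.6% of 16053 kept probes passed, so this count is close to that of all probes. For BLVRB the call came from spot 2, and with spot 1 alone the adjusted p was 0.444. For SPIC it was lost with quantile normalization (adjusted p = 0.162), median centring (0.0761), normexp (0.383), the authors' values (0.146) and spot 2 alone (0.0899). NR1H3 lost it with normexp (adjusted p = 0.0559). FTH1 passed with quantile normalization (adjusted p = 0.00940) and the authors' values (0.0161). These p-values weigh differences between slides against the spread of animals within slide and treatment. A slide cannot be told apart from the animals that lay on it.

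Among treated animals alone, the 3 of slide 4 were compared with the other 5 by limma. BLVRB was higher on slide 4 by 0.76 ± 0.16 (adjusted p = 0.0139) and NR1H3 was lower, at -0.42 ± 0.11 (adjusted p = 0.0330), 2 of 8 genes where 15.8% of kept probes passed. The BLVRB difference was -0.085 ± 0.11 with spot 1 alone (adjusted p = 0.637) and 1.602 ± 0.24 with spot 2 alone (adjusted p = 0.00225). SPIC was at -1.12 ± 0.33 (adjusted p = 0.0543), and it passed with no filter on dim probes (adjusted p = 0.0373), with trend and robust eBayes (0.0401) and with spot 1 alone (0.0177). Without the 2 arrays with liver transcripts, NR1H3 was at -0.38 ± 0.14 (adjusted p = 0.156) and BLVRB at 0.77 ± 0.22 (adjusted p = 0.0793). None of the 8 then passed, where 1596 of 16049 kept probes did. For 3 of the 8 the limma p before adjustment was below 0.05. The matching share of all kept probes is not given here, so nothing is read from that count. With median centring NR1H3 was at -0.20 (adjusted p = 0.298).

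Among untreated animals, controls 4, 6 and 7 of slide 3 were compared with controls 1, 2 and 5 of slide 1. None of the 8 genes passed limma at an adjusted p under 0.05, where 6.15% of 16068 kept probes did, or at an unadjusted one, where 22.8% did. HMOX1 was at 0.43 ± 0.19 (adjusted p = 0.246) and SLC40A1 at 0.29 ± 0.15 (adjusted p = 0.321), both higher on slide 3. The second SLC40A1 probe differed the other way, at -0.76 ± 0.16 (adjusted p = 0.0468).

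The genes were then compared with each other across animals, a relation not itself used to choose them. The group difference that was used to choose them does enter it, as measured and relative to slide means, since neither removes treatment. Of 28 pairs, 22 had a positive Pearson's r across the 15 arrays, and 24 did once values were taken relative to slide means. Each pair was tested by permutation for Pearson's r and Spearman's rho, 56 tests adjusted together. HMOX1 and CD163 moved together most closely, with r = 0.79 (adjusted p = 0.0196, permutation test) and rho = 0.72 (adjusted p = 0.0505). HMOX1 and NR1H3 had r = 0.74 (adjusted p = 0.0431) and rho = 0.60 (adjusted p = 0.101). These were the 2 pairs that passed. Among prednisolone animals and among controls, HMOX1 had r = 0.88 and 0.68 with CD163, 0.70 and 0.84 with NR1H3, and 0.82 and -0.33 with SPIC. Of 11696 genes, 0.085% had an r with HMOX1 at least as high as that of CD163, and 0.26% as that of NR1H3. For NR1H3, 1.92% were at least as high as HMOX1. Relative to slide means none passed, with 6 of 56 tests at an unadjusted p under 0.05.

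Both calls rested on few animals. Without control 5 and prednisolone animal 4, the 2 farthest from the median of HMOX1, HMOX1 and CD163 had r = 0.58, and HMOX1 and NR1H3 r = 0.56. Leaving out either of these animals alone left no pair past the threshold, as did leaving out slide 4. Without the 2 arrays with liver transcripts HMOX1 and CD163 had r = 0.70 (adjusted p = 0.175, permutation test), and without the 6 with liver or testis transcripts r = 0.80 (adjusted p = 0.189). Relative to slide means the r of HMOX1 and CD163 was 0.74 (adjusted p = 0.128).

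CD163 and SLC40A1, the receptor and the exporter, had r = 0.72 and rho = 0.57 across all arrays (adjusted p = 0.0505 and 0.112, permutation test). Relative to slide means r was 0.81 and rho 0.85 (adjusted p = 0.0664 for both, permutation within slides). Without control 5 and prednisolone animal 4 the within-slide r was 0.78, against 0.40 for values as measured. Without the liver arrays it was 0.82 (within slides). This pair thus had the highest r of the 28 within slides, and it did not pass the threshold.

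The values of the ferritin light chain depended on the same 2 animals. Over all 15 arrays FTL had r = 0.15 with CD163, 0.17 with SLC40A1 and 0.089 with HMOX1. Without control 5 and prednisolone animal 4 these were 0.67, 0.53 and 0.37 as measured and 0.81, 0.70 and 0.57 within slides. FTL and FTH1 had an r of 0.074 with each other as measured and of 0.070 within slides. Among prednisolone animals alone their r was -0.93, and among controls 0.31. Of the treated animals, those of slide 4 had the highest FTL values, at 4.62 to 4.66, and the lowest FTH1 values, at 6.47 to 6.64. FTL had r = 0.44 with BLVRB as measured and r = 0.76 within slides (adjusted p = 0.128, permutation within slides), a within-slide value that was 0.66 with spot 1 of BLVRB alone and 0.75 with spot 2. FTH1 and SPIC had r = 0.65 as measured, which 9.64% of 11696 genes reached or passed with SPIC, and -0.024 within slides. NR1H3 and BLVRB ran opposite ways as measured, with r = -0.61, but at 0.0017 within slides, and the r as measured was 0.27 with spot 1 of BLVRB and -0.72 with spot 2.

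**Figure D4:**
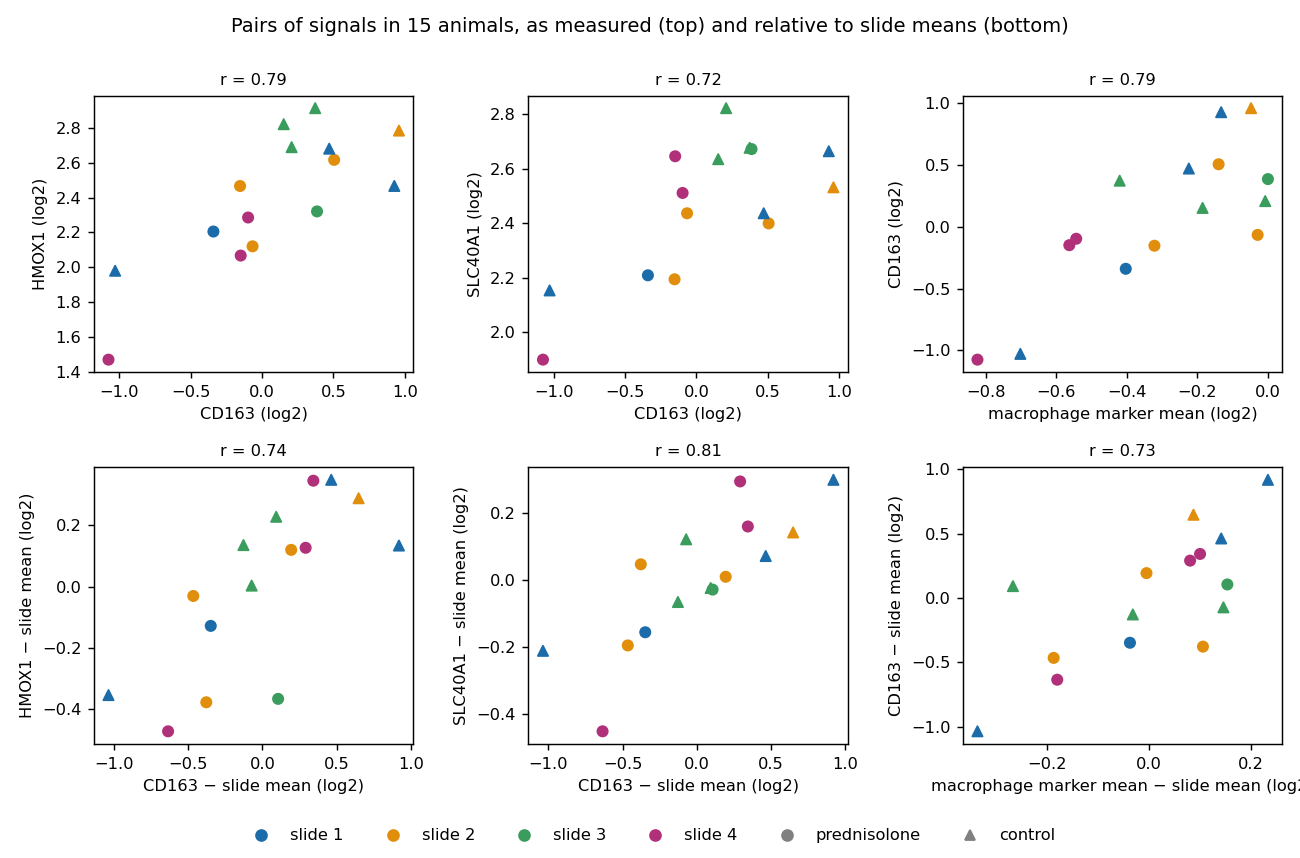
Pairs of signals in 15 animals, in log2 over the 75th percentile as measured (top) and relative to slide means (bottom), circles for prednisolone and triangles for control with a colour per slide. CD163 is set against HMOX1 (r 0.79 and 0.74), SLC40A1 (0.72 and 0.81) and the macrophage marker mean (0.79 and 0.73), and control 5 and prednisolone animal 4 sit at the low end of CD163.

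General macrophage markers gave a measure of macrophage RNA that did not use the 8 genes. Of the 28 markers listed, 24 were kept, and their mean was -0.82 to 0.00088 in prednisolone animals and -0.70 to -0.0068 in controls. Of the 24 genes 19 were lower and 5 higher in prednisolone animals, with a median difference of -0.12, or 0.0037 without slide 4, and none passed limma or had an unadjusted p under 0.05. TYROBP, a signalling adaptor of myeloid cells, differed by -0.15 ± 0.086 and CD14, the co-receptor for bacterial lipopolysaccharide, by -0.30 ± 0.18. Prednisolone animal 4 and control 5 were the 2 animals farthest from the median of this mean.

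Of the 8 genes, 4 followed the macrophage mean across arrays by Pearson's r in a family of 16 permutation tests. How many of all genes follow this mean as closely was not counted, so that count has no background beside it and nothing is read from it. These permutations did not keep slides apart, and the macrophage mean was lowest on slide 4, at -0.64. Treatment was not removed either, here or in the values relative to slide means below. The macrophage mean averaged -0.35 in prednisolone animals and -0.24 in controls, so the group difference used to choose the genes enters these tests. NR1H3 had r = 0.86 (adjusted p = 0.00224), CD163 r = 0.79 (adjusted p = 0.00328), HMOX1 r = 0.65 (adjusted p = 0.0272) and SLC40A1 r = 0.63 (adjusted p = 0.0315). By Spearman's rho NR1H3 at 0.68 and CD163 at 0.69 passed (adjusted p = 0.0272 for both, permutation test), HMOX1 at 0.48 and SLC40A1 at 0.53 did not (adjusted p = 0.110 and 0.0837). SPIC had r = 0.55 (adjusted p = 0.0689), FTH1 0.42, FTL -0.22 and BLVRB -0.53.

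Relative to slide means, SLC40A1 had r = 0.74 (adjusted p = 0.0138) and rho = 0.70 (adjusted p = 0.0453), and CD163 had r = 0.73 (adjusted p = 0.0486) and rho = 0.65 (adjusted p = 0.0839), by permutation within slides. NR1H3 was at 0.63 (adjusted p = 0.222) and HMOX1 at 0.31 (adjusted p = 0.640). CD163 and SLC40A1 were thus the 2 genes whose Pearson's r passed both as measured and within slides, with the group difference part of both. Without control 5 and prednisolone animal 4 the values as measured were 0.76 for NR1H3, 0.54 for CD163, 0.28 for HMOX1 and 0.25 for SLC40A1, and within slides 0.68 for SLC40A1 and 0.45 for CD163. Without the 3 arrays of slide 4 none passed, with NR1H3 at 0.73, CD163 at 0.70, SLC40A1 at 0.64 and HMOX1 at 0.32, and leaving out control 7 or prednisolone animal 4 alone left 2.

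Without the arrays with liver transcripts, 2 of these calls were lost as measured. NR1H3 had r = 0.87 (adjusted p = 0.00352) and CD163 r = 0.70 (adjusted p = 0.0485, permutation test, 13 arrays), while HMOX1 and SLC40A1 were both at 0.46 (adjusted p = 0.262). Within slides none passed without them, with SLC40A1 at 0.72 and CD163 at 0.65 (adjusted p = 0.309 for both). On the 9 arrays with neither liver nor testis transcripts NR1H3 had r = 0.95 (adjusted p = 0.0160, permutation test), CD163 0.74, HMOX1 0.67 and SLC40A1 0.58, and the last 3 did not pass.

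**Figure D5:**
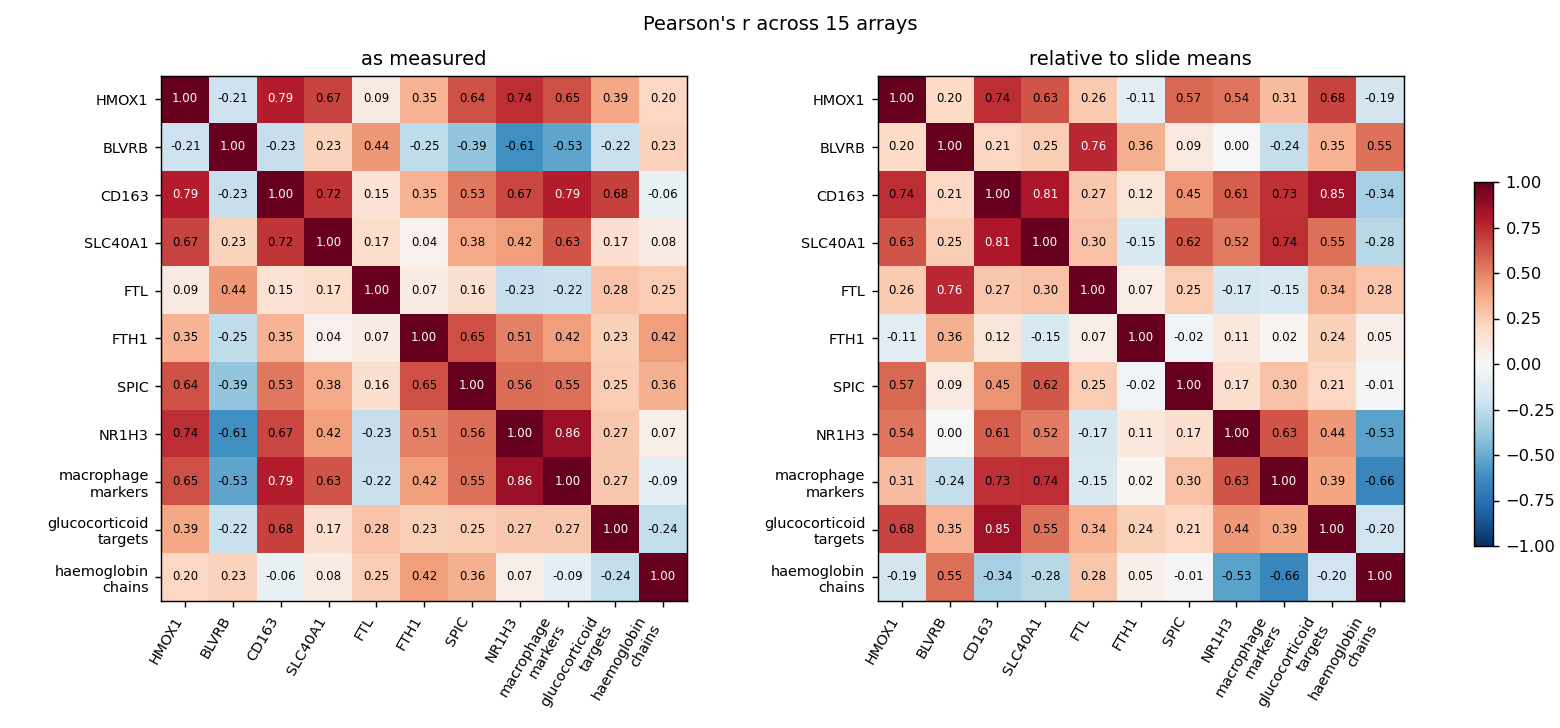
Pearson's r across 15 arrays between the 8 genes and the means of macrophage markers, glucocorticoid targets and haemoglobin chains, as measured (left) and relative to slide means (right), on a colour scale from -1 to 1. HMOX1, CD163, SLC40A1 and the macrophage mean have positive values among themselves in both panels, at 0.63 or more as measured, and FTL and FTH1 are near 0 with each other.

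Relations with 13 other lists were added after the data were seen, 208 permutation tests adjusted together. Treatment was not removed, as measured or relative to slide means. The group difference used to choose the genes therefore enters these tests. None passed as measured, where 25 tests had an unadjusted p under 0.05. Relative to slide means, 1 passed: FTL and the mean of 12 LXR partners and targets, with r = -0.81 (adjusted p = 0.0208) and rho = -0.78 (adjusted p = 0.0775), by permutation within slides. Animals with more ferritin light chain signal had less signal of this list, also as measured (r = -0.77, adjusted p = 0.123, permutation test), without the 2 animals farthest from the median (-0.75 within slides) and without the liver arrays (-0.81 within slides). FTL was lower in prednisolone animals, while the mean of this list averaged 0.10 in them and -0.033 in controls. How much of this r came from the group difference was not tested.

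CD163 went with the mean of 7 glucocorticoid target genes within slides, at r = 0.85 (adjusted p = 0.0582) and rho = 0.84 (adjusted p = 0.0763, permutation within slides), short of the threshold. As measured r was 0.68 (adjusted p = 0.146). Among single targets the within-slide r was 0.81 for FKBP5, 0.78 for ZBTB16, 0.74 for KLF9, 0.74 for PER1, 0.66 for TSC22D3, 0.40 for SGK1 and 0.21 for DUSP1. The TSC22D3 probe, also part of the mean, was above background in only 3 of 8 prednisolone animals and 4 of 7 controls. Without the liver arrays the within-slide r with the mean was 0.86, and without the 2 animals farthest from the median 0.81. Within slides HMOX1 was at 0.68 with the same mean and SLC40A1 at 0.55 (adjusted p = 0.400 for both, permutation within slides). SPIC, FTL, FTH1, BLVRB and NR1H3 were at 0.21 to 0.44. For HMOX1 the single targets ran from 0.15 for DUSP1 to 0.73 for FKBP5, with SGK1 at 0.62. CD163 thus had the highest r of the 8 genes, with HMOX1 and SLC40A1 next. Between the groups 2 targets were higher and 5 lower in prednisolone animals, at a median of -0.22. None passed limma, and 1 had an unadjusted p under 0.05. SGK1, a kinase induced by glucocorticoids, was at -0.23 ± 0.10 and DUSP1, a phosphatase, at 0.16 ± 0.10.

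Haemoglobin RNA marks red cells and their precursors in the tissue. All 6 kept haemoglobin chains were lower in prednisolone animals, with a median difference of -0.23, but 3 were lower with slide as a block, at a median of -0.026, and none passed limma or had an unadjusted p under 0.05. HBA differed by -0.49 ± 0.28, HBB by -0.38 ± 0.26, HBG by -0.30 ± 0.26, HBE1 by -0.096 ± 0.16 and HBE4 by -0.092 ± 0.21. HBZ, at -0.16 ± 0.26, had no value on the 3 arrays of slide 4, where its spots were marked as outliers, and was left out of the haemoglobin mean. That mean was -0.25, 0.38 and 0.65 in prednisolone animals and 0.065, 0.64 and 1.105 in controls.

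Over all arrays no gene reached an absolute r of 0.5 with the haemoglobin mean, and relative to slide means 2 did. Pearson's r over the 15 arrays ran from -0.064 for CD163 to 0.42 for FTH1, with a median of 0.22. Relative to slide means it ran from -0.53 for NR1H3 to 0.55 for BLVRB, with a median of -0.10. The within-slide Spearman's rho was -0.29 for NR1H3 and 0.575 for BLVRB. With the mean of HBA, HBB and HBG alone, the within-slide r was -0.47 for NR1H3, short of 0.5, and 0.58 for BLVRB. Without slide 4 r with the full mean was -0.57 for NR1H3 and 0.65 for BLVRB, as measured. All BLVRB values here average the 2 spots that disagreed. For comparison, HBB had r = 0.98 with HBG and 0.83 with HBA. CD163, the receptor for haemoglobin, was at -0.34 within slides and HMOX1 at -0.19. Of the other erythroid genes 8 of 10 were lower in prednisolone animals, at a median of -0.30, or 0.091 with slide as a block, and 2 had an unadjusted p under 0.05 but none passed. GYPC, a red cell membrane protein, was at -0.20 ± 0.085 and EPB42, a part of the red cell membrane skeleton, at -0.32 ± 0.14, from a probe above background in 5 of 8 prednisolone animals and 5 of 7 controls.

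The remaining genes of haem and iron handling were balanced. Of 25 kept genes 13 were higher and 12 lower in prednisolone animals, with a median of 0.014 and none past limma's threshold, adjusted or not. BLVRA, the other biliverdin reductase, was at -0.10 ± 0.059. TF, the blood carrier of iron, was at 2.003 ± 1.11, but its signal was 2.48 in prednisolone animal 4 and 0.76 in prednisolone animal 3 against -6.22 to -3.77 in all other animals. Those are the 2 animals with liver transcripts. HPX, which binds free haem and was named after its values were seen, was 0.87 and -0.996 in the same animals and -2.58 to -2.18 in the others.

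Of 7 haem synthesis genes 4 were higher and 3 lower, at a median of 0.027, with UROD, the decarboxylase of the pathway, at -0.14 ± 0.100. Of 14 genes of the BACH1 and NRF2 circuit, whose factors repress and activate HMOX1, 6 were higher and 8 lower, at a median of -0.026. PRDX1, a peroxidase, was at -0.19 ± 0.078 and MAFK, a partner of both factors, at 0.15 ± 0.093. Of the 12 LXR partners and targets 8 were higher and 4 lower, at a median of 0.091. The cholesterol exporter ABCA1 was at 0.65 ± 0.29, from a probe above background in 7 of 8 prednisolone animals and 2 of 7 controls, and RXRA, the partner of LXR, at 0.25 ± 0.12. None of these 33 genes passed limma, and 2 had an unadjusted p under 0.05.

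Of 42 kept markers of other cells of the gland none passed limma, and 5 had an unadjusted p under 0.05. Of 8 thymocyte markers 6 were higher in prednisolone animals, at a median of 0.057, with CD8A at 0.23 ± 0.071 and CD3E at 0.11 ± 0.077. All 5 adipocyte markers were higher, at a median of 0.24, with GPD1 at 0.24 ± 0.094 and LIPE at 0.26 ± 0.19. All 5 neutrophil markers were lower, at a median of -0.15, with S100A8 at -0.31 ± 0.19 and MPO at -0.28 ± 0.35. The marker means of these cells overlapped between groups, at -2.78 to 0.23 in prednisolone animals and -2.70 to -0.44 in controls for adipocytes.

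Of 6 B cell markers 5 were higher, at a median of 0.27, with CD79B at 0.52 ± 0.22. Of 6 fibroblast markers 5 were higher, at a median of 0.22, with PDGFRB at 0.36 ± 0.13 and COL3A1 at 0.39 ± 0.19. Of 5 endothelial markers 1 was higher, CDH5 at 0.28 ± 0.15, and TEK was at -0.058 ± 0.12, for a median of -0.042. Of 7 thymic epithelium markers 3 were higher, at a median of -0.011, with PRSS16 at -0.14 ± 0.076 and KRT5 at 0.15 ± 0.15. Their part in the values of the 8 genes was not tested beyond the relations given above.

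The genes nearest in pattern to each member were taken as the 3 with the highest Pearson's r over 15 arrays of values relative to slide means, among 11689 genes. For CD163 they were CD14 at 0.89, SLC49A4 at 0.88 and SELENOP, a selenium carrier, at 0.88. For SLC40A1 they were MRC1, the macrophage mannose receptor, at 0.90, RARRES1 at 0.90 and IGF1, a growth factor, at 0.89. Both neighbourhoods thus began with a macrophage marker, with r as measured of 0.85 for CD14 and 0.86 for MRC1. The nearest genes of every member reached 0.81 or more within slides, so the height of r does not set these apart. For HMOX1 they were NBR1, an autophagy receptor, at 0.86, MEGF10, a receptor for engulfment of dying cells, at 0.84 and TRIM32 at 0.83. As measured, the r of HMOX1 was 0.063 with NBR1, 0.76 with MEGF10 and 0.29 with TRIM32.

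For FTL they were UQCC1 and NDUFA7, at 0.89 each, and RPL11, a ribosomal protein, at 0.88. UQCC1 helps to assemble the mitochondrial respiratory chain, and NDUFA7 is a subunit of it. For FTH1 they were WWOX at 0.90, LRIT1 at 0.87 and KCNJ9, a potassium channel, at 0.87. For SPIC they were IL36G, a cytokine, at 0.89, AQP6, a water channel, at 0.88 and FAM217B at 0.87. For BLVRB they were ANKS1B at 0.85, TMT1A at 0.82 and KLHL22 at 0.81, and for NR1H3 ZNF235 at 0.85, PPM1H at 0.84 and VAV3 at 0.83. As measured, the r of BLVRB with ANKS1B was -0.16 and that of NR1H3 with ZNF235 was 0.16. Among other members, CD163 ranked 19th of all genes for SLC40A1, and FTL 18th for BLVRB, by the within-slide measure. These were the best ranks of 1 member for another, and the worst was that of SLC40A1 for FTH1, 8315th.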

How the data were processed

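The deposited scanner files give 1 intensity per spot. Per the file headers they come from version 9.5.1.1 of Feature Extraction. Per the series' design text, the authors' processed signal joins scans at 2 settings, is background-subtracted and corrected for a multiplicative trend. Flags (well above background, saturated, outlier) were set by that software, per the file headers. Processed intensity values were deposited too, on a linear scale, with a median per column of 188.532 to 274.144. Their log2 had r of 0.9976 or more with the log2 signal used here, they run in the direction of the signal, and no source used here gives their scaling or centring. R 2.11.1 is named in the submitters' processing notes.

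From each array's log2 signal the 75th percentile over bovine spots was subtracted, outlier spots were dropped and spots of a probe averaged (1 spot of NR1H3 was dropped). A bovine probe was kept if 7 or more of the 15 arrays showed it well above background, which 16069 of 21475 did. Symbols of 16414 probes came from gene number (9610), accession (3504), description (2915) or gene name (385), matched to RefSeq's cattle genes. Probes were fitted with limma 3.58.1 (R 4.3.3, statmod 1.5.0, data.table at 1.17.8) and adjusted by Benjamini-Hochberg over all kept probes, at 0.05. Residual SD is that of the treatment fit. Relations used Pearson's r and Spearman's rho with two-sided permutation tests of 100000 resamples (Python 3.11.15, numpy 2.4.6, pandas 2.3.3), for which 1e-05 is the smallest p. Fits were tested on simulated data. All arrays were scanned on 1 day.

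The 8 genes and the lists were chosen with earlier results of these data known. All 8 genes were named. Per list up to 4 genes that passed were named, otherwise the 2 of smallest unadjusted p, and all kept haemoglobin chains. Some genes that this rule names are not reported here. Animals are numbered in the order of the samples. Alternatives were quantile normalization, median centring, the authors' values, normexp (offset 50), other filters, slide blocks, array weights, outlier spots kept, probes averaged and animals left out. The number of arrays limits the precision.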

Additional observations from a re-analysis of the deposited data

Results flagged for a closer look

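In 22 groups of values examined for a single animal far from the rest, 3 animals' values stood out by Dixon's test, a test that chance passes in about 1 of 20 groups. Control 2 had the highest SPIC signal of the controls, -3.01, with the next at -3.53, a gap of 0.598 of the range against a critical value of 0.568. Control 5 was the lowest control for CD163, at -1.03, with the next at 0.15, a gap of 0.594 of the range. The same animal was the lowest control for NR1H3, at 0.23, with the next at 0.54, a gap of 0.629 of the range. Control 5 showed neither liver nor testis transcripts.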

How the results depend on the processing

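For prednisolone against control, 276 values of the 8 genes stayed within 1 SD of the value given and 4 moved further. These settings refit the contrast on which the genes were chosen, with largely the same animals, so they are no independent support for it. Over 36 settings the difference was negative in all 36 for HMOX1, FTL and SLC40A1, in 35 for BLVRB, CD163 and SPIC and in 34 for FTH1 and NR1H3, and leaving out each of 15 animals in turn turned no sign, with -0.64 for CD163 without control 5 and, without prednisolone animal 4, -0.12 for SLC40A1, -0.38 for SPIC and -0.069 for NR1H3. The count of probes that passed this contrast, 0, was 1 with quantile normalization and 0 to 3 with 1 animal left out, 3 without prednisolone animal 1. The slide test's count of 4911 was 144 with normexp and 8538 with no filter. Slide 4 against other prednisolone arrays gave 2541 probes, 1671 with probes above background on all arrays, 6230 with no filter and 1596 without the liver arrays. For the slide tests of the 8 genes, 199 values kept their direction and side of the threshold, 11 lost a call and 7 gained one. For BLVRB the slide 4 difference turned to -0.085 with spot 1 alone. Slide 3 against slide 1 controls gave 988, and 272 with quantile normalization, 82 with median centring, 0 with normexp, 138 with the authors' values and 530 with no filter.

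The 2 pairs that passed became 5 with quantile normalization and 7 with the authors' values. They became 0 each with normexp, relative to slide means (with or without the liver arrays), without slide 4 and without control 5 and prednisolone animal 4. They were also 0 without the 2 farthest arrays, without the 2 arrays with liver transcripts and without the 6 with liver or testis transcripts. With 1 animal left out they were 0 to 5. The 4 relations with the macrophage mean became 2 relative to slide means, with normexp and without the liver arrays, 1 without control 5 and prednisolone animal 4, without the 2 farthest and without the 6 arrays, and 0 without slide 4 and relative to slide means without the liver arrays. With 1 animal left out they were 2 to 4. These counts have no share of all genes beside them. The count of genes with an absolute r of 0.5 or more with haemoglobin, 0, became 2 relative to slide means (with or without the liver arrays) and 2 without slide 4, and 0 to 1 with 1 animal left out. The cause was not tested. Leaving out slide 4, control 5 with prednisolone animal 4 or arrays with liver or testis transcripts, and single spots, were chosen after seeing the data.

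No paired analysis was possible because the labels give the groups no shared replicate numbers. With 8 and 7 animals and 1 slide without controls, treatment and slide 4 cannot be told apart for the 3 animals of that slide.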
